A study of Mus musculus with 6 samples.

Results

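Among 18393 single cells of the neonatal mouse cortex, 57 were annotated by the authors as Ms4a7_high (45 cells) or Border_Macrophages (12 cells), and these 57 were selected by those names alone. Together with 810 cells named Microglia and the T cells they made up the 883 immune cells of a collection sorted into 18 subtypes. Cells were taken on postnatal day 5 (P5) from the cortex of 3 wild-type mice (WT, FVB.129P2-Pde6b+ Tyrc-ch/AntJ) and 3 Fmr1-KO mice (FVB.129P2-Pde6b+ Tyrc-ch Fmr1tm1Cgr/J), which carry a knockout allele of the Fragile X gene Fmr1. The tissue was dissociated with papain, single cells were captured in droplets (InDrop), and transcripts were counted by unique molecular identifiers (UMIs). WT 1, Fmr1-KO 1 and Fmr1-KO 2 formed collection batch 1 (bead version V2), and WT 2, WT 3 and Fmr1-KO 3 formed batch 2 (V3.8). Since 39 of the 45 Ms4a7_high cells came from WT 3, the cells of all mice were pooled and no comparison of genotypes was made.

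Macrophages of the brain come in several kinds. Microglia lie within the tissue, whereas border-associated macrophages line the meninges, the perivascular spaces and the choroid plexus, where they take up material through scavenger and lectin receptors such as the mannose receptor. Monocytes are circulating cells of the same family, present in blood vessels, and are usually divided into a classical and a patrolling, non-classical kind. Ms4a7, a membrane protein with several spans, is commonly used to tell border macrophages from microglia.

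The 45 Ms4a7_high cells held 111028 UMIs (median 2040 per cell, range 756 to 6374) and the 12 Border_Macrophages cells held 23881 (median 1479.5, range 798 to 4478), against 2586164 UMIs in the microglia (median 2655.5). Levels are given as UMIs of the gene in every 1e6 UMIs of the pooled cells (CPM). At these totals 3 UMIs, the floor used for a count of 0, corresponded to 27.0 CPM in Ms4a7_high, 126 CPM in Border_Macrophages and 1.16 CPM in Microglia. Where a count was 0, "at least" below gives the ratio at this floor. It is not an interval bound, which can be less extreme. Totals per mouse ran from 7909181 to 20629134 UMIs, and Fmr1 was at 68.4 to 74.1 CPM in the WT mice and at 16.1 to 19.9 CPM in the Fmr1-KO mice. The 17 libraries were not free of shared cells. There were 3307 pairs of cells with the same barcode in 2 libraries of the same mouse, and 93.3% of these pairs had the same subtype, against 16.7% of the 468 pairs from different mice. Of the 57 cells, 7 had such a barcode (5 Ms4a7_high and 2 Border_Macrophages), as did 123 of the 810 microglia. Counting each barcode once per mouse left 42 Ms4a7_high cells, 11 Border_Macrophages cells and 743 microglia, and the counts of genes below are also given without the cells that share a barcode.

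The Ms4a7_high cells were very unevenly spread over the mice. WT 3 had 39 among its 249 immune cells, or 15.7% (exact binomial 95% interval 11.4 to 20.8). WT 1 had 1 of 95 (1.05%), WT 2 had 2 of 175 (1.14%), Fmr1-KO 1 had 2 of 115 (1.74%) and Fmr1-KO 3 had 1 of 158 (0.633%). Fmr1-KO 2 had 0 of 91, which allows up to 3.97%. The interval of WT 3 lay above those of the other 5 mice, and the same held with each barcode counted once (36 of 241 cells, 14.9%). In WT 3 these cells were found in each of its 3 libraries, with 9, 18 and 12 cells, so they did not come from a single library. Set against all cells of the mouse other than doublets, they were 1.14% in WT 3. Microglia made up 79.5% of the immune cells of WT 3 and 94.9% to 97.9% in the other mice. Fibroblasts were also most frequent in WT 3, with 85 cells (2.49% of all its cells) against 2 to 22 cells in the other mice, and their part in the cell count of WT 3 was not tested. The Border_Macrophages cells were spread more evenly, with 5 cells in WT 3 (2.01% of immune cells), 3 in Fmr1-KO 2 (3.30%), 3 in Fmr1-KO 3 (1.90%), 1 in WT 2 (0.571%) and 0 in WT 1 and Fmr1-KO 1, and the intervals of all 6 mice overlapped.

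**Figure D1:**
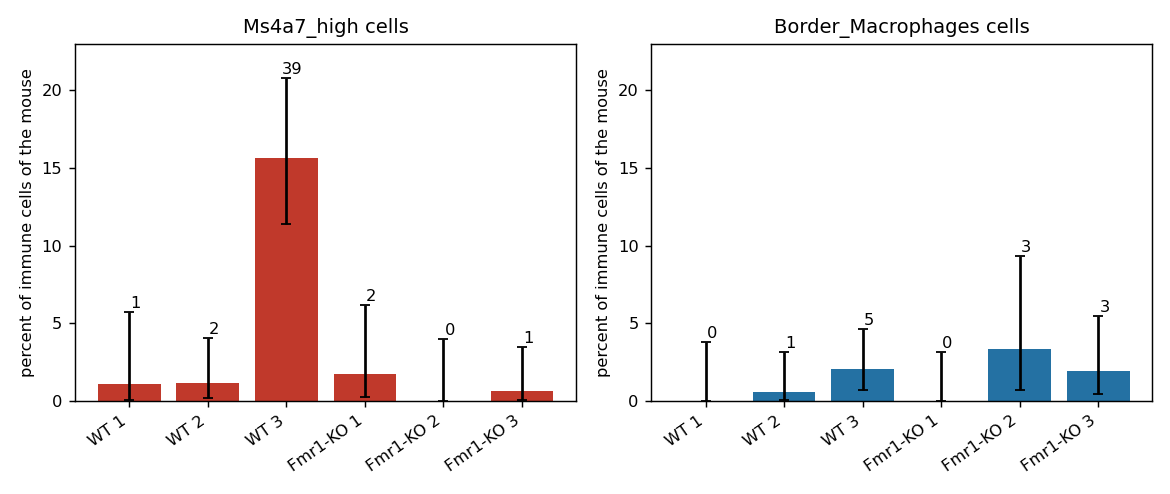
Share of the immune cells of each mouse that were Ms4a7_high (left) or Border_Macrophages (right), in percent. Bars give the share, error bars the exact binomial 95% interval, and the number above a bar the count of cells. WT 3 stood apart for Ms4a7_high with 39 cells (15.7%), whereas Border_Macrophages held 0 to 5 cells in every mouse.

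The Ms4a7_high cells were led by receptors of border macrophages. Mrc1, the mannose receptor CD206, was found in 45 of 45 cells (lowest 7, median 19, highest 63 UMIs) and stood at 9160 CPM, against 554 CPM in the pooled microglia and 550 ± 48.9 CPM (SD, n = 6) over the microglia of the 6 mice, a 16.5-fold difference (95% interval 15.2 to 17.9). Lyve1, a hyaluronan receptor of perivascular macrophages and lymphatic vessels, was found in 44 of 45 cells (median 14, highest 76 UMIs) and stood at 7800 CPM against 5.80 CPM, 1345-fold (811 to 2413). The subtypes are clusters built from these same genes, so their differences are descriptions, with no test. All intervals cover counting error only, and a change of 4-fold or more is named below as past the fold.

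Ms4a7 itself was a low but selective transcript. It gave 49 UMIs in 26 of the 45 cells, 441 CPM, against 4 UMIs (1.55 CPM) in the microglia, 285-fold (105 to 1089). Its level in the 39 cells of WT 3 was 437 CPM, and in the 6 cells of the other mice 459 CPM. With each cell thinned to 700 UMIs, 33.3% of the Ms4a7_high cells still held it, 57.8% before thinning, against 0.370% of the microglia and 0 of 2160 excitatory neurons (median 1274 UMIs), which serve as cells that should lack it. The counts of Mrc1 separated the groups less sharply, since 50.1% of microglia also held it (26.7% after thinning) and 0.556% of the excitatory neurons.

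The gene Ms4a7 lies at chr19:11321039-11336146 on the minus strand and Mrc1 at chr2:14229392-14332057 on the plus strand (GRCm38, the build of mm10). As these 2 genes mark the group, their promoters are shown, 250 bases before to 50 bases after the annotated start, in transcript direction from RefSeq (GRCm38.p6). Capitals mark GAGGAA, the core of the element bound by the macrophage factor PU.1, or its reverse TTCCTC. It was found 1 time in the promoter of Ms4a7 at chr19:11336097-11336396 (-) and 3 times in that of Mrc1 at chr2:14229164-14229463 (+), both strands being searched. A second annotated start of Ms4a7, at chr19:11334646-11334945 (-) and not printed, held 0 matches.

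Ms4a7: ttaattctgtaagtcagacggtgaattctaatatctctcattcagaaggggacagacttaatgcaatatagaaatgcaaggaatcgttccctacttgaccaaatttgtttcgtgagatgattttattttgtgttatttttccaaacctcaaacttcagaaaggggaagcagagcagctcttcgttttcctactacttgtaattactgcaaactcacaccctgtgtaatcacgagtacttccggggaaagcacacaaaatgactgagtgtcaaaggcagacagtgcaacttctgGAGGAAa

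Mrc1: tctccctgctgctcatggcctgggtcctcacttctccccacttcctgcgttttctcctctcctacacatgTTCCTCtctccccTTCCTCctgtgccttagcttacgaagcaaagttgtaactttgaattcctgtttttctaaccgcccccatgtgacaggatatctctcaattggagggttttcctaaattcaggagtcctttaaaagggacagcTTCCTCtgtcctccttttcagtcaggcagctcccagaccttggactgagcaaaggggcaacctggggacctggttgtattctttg

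This motif was present in 28.3% of 32851 mouse promoters of the same length, and TGCTGA, part of the site bound by MAF factors, in 19.5%. TGCTGA was found in neither of the promoters shown, which says only that these letters are not in the windows. A match is a description of the sequence, and no binding was measured here.

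Further genes of the list of border macrophage markers were high in the same cells. Dab2, an endocytic adaptor, stood at 4269 CPM in Ms4a7_high and 222 CPM in Microglia (19.3-fold, 17.0 to 21.8) and was found in 45 of 45 cells. F13a1, a coagulation factor subunit made by tissue macrophages, stood at 3143 against 6.19 CPM (508-fold, 308 to 899) and Pf4, a CXC chemokine, at 2621 against 12 CPM (219-fold, 151 to 328). Cd163, the receptor for haptoglobin-bound hemoglobin, stood at 1432 against 8.89 CPM, but its 159 UMIs came from 23 of the 45 cells, and 32 of them from 1 cell. Microglia held Cd163 less often (2.59% of cells) than the excitatory neurons (4.91%), so its microglial level lay at background. The lectins Clec10a (1846 against 3.48 CPM) and Cd209f (847 CPM, 94 UMIs, against 2 UMIs in all microglia), the clearance receptor Stab1 (2261 against 145 CPM) and the chemokine Ccl24 (1054 against 5.03 CPM) showed the same direction.

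Of the 20 genes of the list, 15 were 4-fold or more higher in Ms4a7_high than in Microglia and 0 were 4-fold or more lower. Over all genes with enough UMIs to be compared, 119 of 2111 (5.64%) were higher and 56 (2.65%) were lower by that factor, and the median log2 ratio was 7.33 over the 17 genes of the list that were measured and 0.04 over all measured genes. A gene low in microglia could be measured only by being high in the smaller group. Of the other 5 members of the list, Maf, a transcription factor, stood at 3765 against 1260 CPM (2.99-fold, 2.69 to 3.31), Fcrls at 315 against 565 CPM, Cd209b had 8 UMIs, Siglec1 had 7 UMIs against 0 in the microglia, and Clec12a had 0 UMIs. Among the 18 subtypes, 17 of the 20 genes were highest in Ms4a7_high. These included Cd209b and Siglec1, which had too few UMIs to be measured, and the share of all genes highest in Ms4a7_high was not computed. Each of the 45 cells held more UMIs of this list (lowest 25, median 89, highest 279) than of the list of homeostatic microglia genes (lowest 3, median 11, highest 24), and 44 of 45 held Mrc1 together with Lyve1 or Pf4. In Microglia the list reached a median of 6 UMIs per cell.

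**Figure D2:**
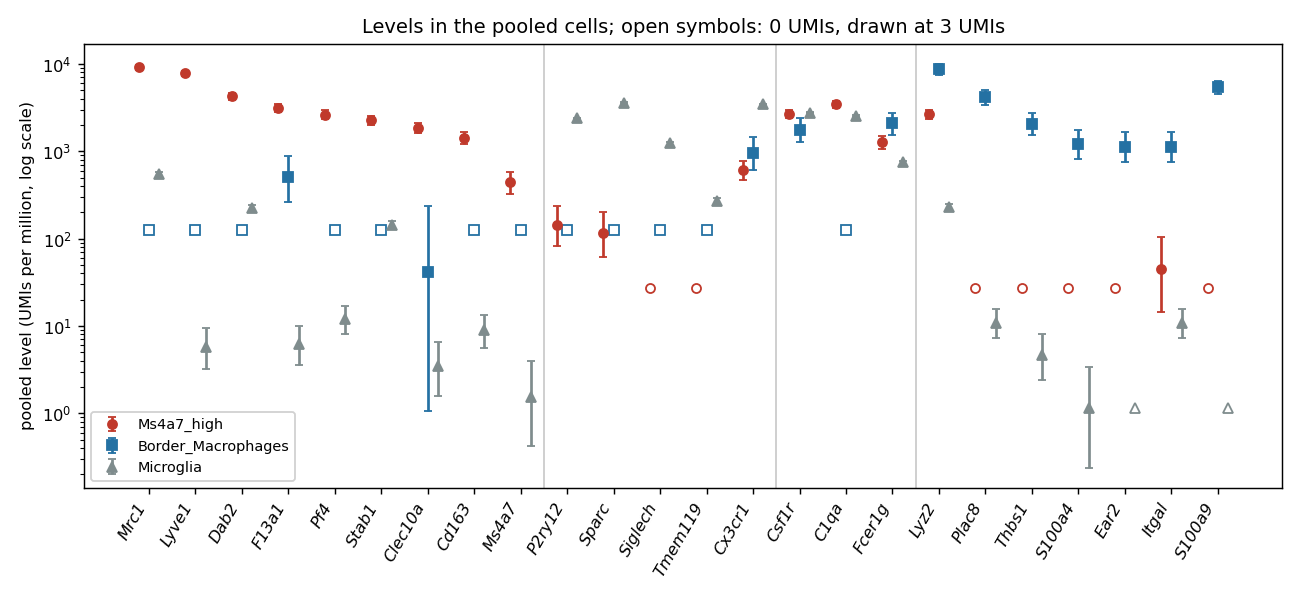
Pooled level of 24 genes in Ms4a7_high (red circles), Border_Macrophages (blue squares) and Microglia (grey triangles), in CPM on a log scale, with the exact Poisson 95% interval. An open symbol marks 0 UMIs and is drawn at the level of 3 UMIs. Between the vertical lines stand, from left to right, border macrophage markers, microglia markers, genes of macrophages in general and genes of the Border_Macrophages cells. Of the general genes, C1qa had 0 UMIs in Border_Macrophages. Mrc1, Lyve1 and Ms4a7 were highest in Ms4a7_high, and Plac8 and S100a9 in Border_Macrophages.

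The genes that mark resting microglia were low in the same cells. P2ry12, the purine receptor of microglial processes, stood at 144 CPM (16 UMIs in 11 cells) against 2373 CPM in the pooled microglia, where it ranged from 1784 to 2825 CPM over the mice, 16.5-fold lower. The matrix protein Sparc (117 against 3569 CPM) was 30.5-fold lower. Siglech (1237 CPM in Microglia), Olfml3, Tmem119, the transcription factor Sall1 and Phgdh had 0 UMIs in all 45 cells. For Siglech this made the level at least 45.8-fold lower, for Tmem119, a membrane protein specific to microglia in the brain, at least 10.1-fold lower, and for Sall1 at least 11.4-fold lower. Cx3cr1, the fractalkine receptor, stood at 603 against 3435 CPM (5.69-fold lower). Of the 20 genes of this list 15 were past the fold downward and 0 upward, with 18 measured. Over all measured genes 2.65% were lower and 5.64% higher. The median log2 ratio of the list was -3.49. The tetraspanin Cd81, outside the list, was 16-fold lower (63.0 against 1008 CPM).

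Most genes of macrophages in general differed by less than the fold between both cell kinds. Csf1r, the receptor for the growth factor on which these cells depend, stood at 2666 CPM in Ms4a7_high and 2771 CPM in Microglia, within the range of 2391 to 3610 CPM over the microglia of the 6 mice. The complement genes C1qa (3441 against 2529 CPM), C1qb (2576 against 1732 CPM) and C1qc (3053 against 2199 CPM) were 1.36 to 1.49-fold higher. Of 19 genes of this kind, 1 was past the fold, Lyz2, and the median log2 ratio was -0.06. Over all measured genes 5.64% were higher and 2.65% lower, with a median log2 ratio of 0.04. The list was thus near the values of measured genes in general. Lyz2, lysozyme of myeloid cells, stood at 2648 against 232 CPM (11.4-fold, 9.89 to 13.1), with 141 to 504 CPM over the microglia of the mice. The near-identical neighbour Lyz1 gave almost the same counts (288 and 294 UMIs), as in 6 of 6 Border_Macrophages cells with 10 or more Lyz2 UMIs where the counts lay within 20% of each other, so the split of reads between the copies is uncertain. Msr1, a scavenger receptor for modified lipoproteins, gave 11 UMIs in 10 cells (99.1 CPM against 3.87 CPM) and was too low to be counted as measured.

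**Figure D3:**
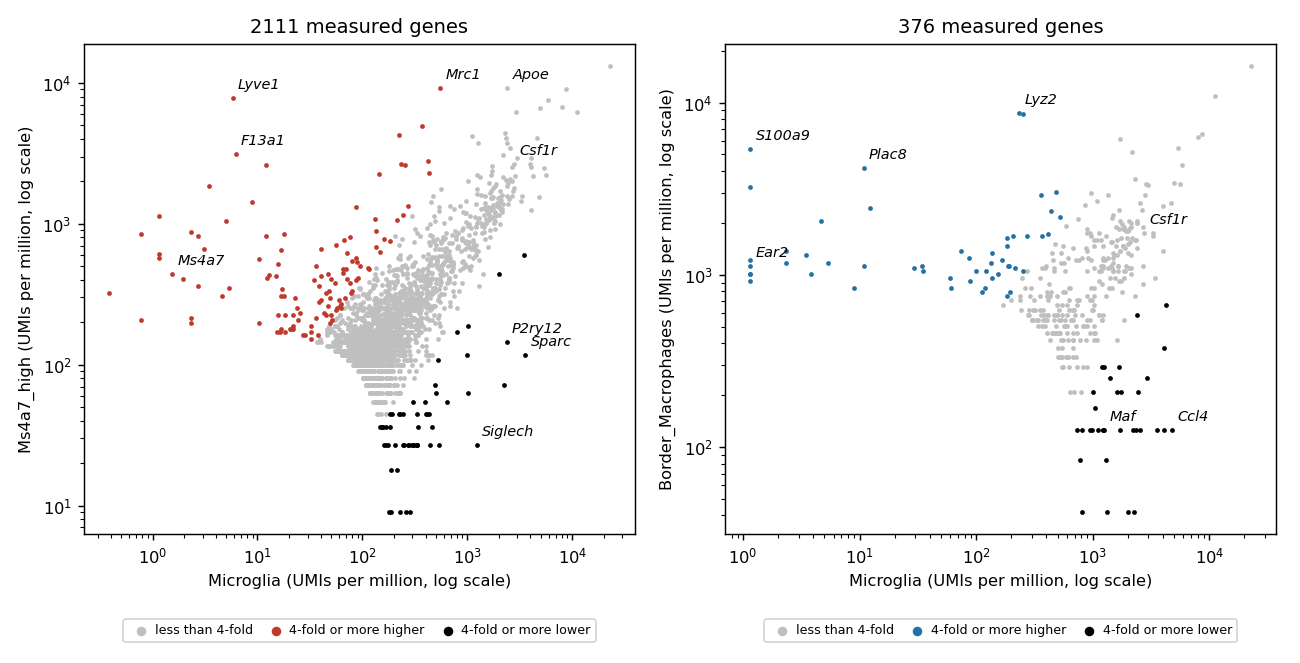
Pooled levels in CPM on log scales, with Microglia on the horizontal axis and Ms4a7_high (left, 2111 measured genes) or Border_Macrophages (right, 376 measured genes) on the vertical axis. Each point is a gene, a count of 0 is drawn at the level of 3 UMIs, and colours mark genes past the fold. In the left panel 119 genes were higher and 56 lower, in the right panel 52 and 34.

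The Ms4a family forms a cluster of 19 annotated genes on chr19:10962293-11640851, of which 10 were in the count table. Members detected in Ms4a7_high were Ms4a7, Ms4a6b, Ms4a6c and Ms4a6d, and all 4 were past the fold upward. Over all measured genes 5.64% were higher and 2.65% lower. At 1.55 to 86.6 CPM in Microglia, these 4 could be measured only by being higher in Ms4a7_high, so their direction was fixed by the filter. Ms4a6c stood at 1306 against 86.6 CPM (15.1-fold, 12.1 to 18.7), Ms4a6b at 712 against 56.1 CPM (12.7-fold) and Ms4a6d at 423 against 40.2 CPM (10.5-fold). The other members of the cluster in the table had 0 UMIs in these cells. Border_Macrophages had no UMI of Ms4a7, but Ms4a6c at 1256 CPM, close to Ms4a7_high (ratio 1.04, 0.698 to 1.60). Ms4a6c was also found in excitatory neurons, at 166 CPM, above its level in Microglia. The 12 cells also held 8 UMIs of Ms4a4c, of which 7 lay in 1 cell.

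Several receptors for uptake were higher in Ms4a7_high. Of 15 scavenger and endocytic receptors 9 were past the fold upward and 0 downward, with 10 measured, against 5.64% and 2.65% of all measured genes. Of these 9, 6 (Mrc1, Stab1, Cd163, Dab2, Cd209f and Lyve1) also belong to the list of border macrophage markers. Besides those named above, the lectin Clec4n stood at 576 against 1.16 CPM (64 against 3 UMIs, 497-fold, 163 to 2473), the fatty acid receptor Cd36 at 360 against 2.71 CPM and the collectin Colec12 at 558 against 10.4 CPM. Clec4n, Cd36 and Colec12 could be measured only through a high level in Ms4a7_high. Their direction was fixed by the filter, as was that of Lyve1, Cd163 and Cd209f. Colec12 stood higher still in Fibroblasts, at 758 CPM. The measured gene of this list that differed in the other direction was Lrp1, the lipoprotein receptor-related protein (171 against 583 CPM, 0.294-fold). Scarb1 (27.0 against 66.9 CPM) and Scarb2 (36.0 against 97.1 CPM) were also lower but too low to be measured, as was Msr1, which was higher. Ficolin A (Fcna), a soluble lectin, stood at 874 against 2.32 CPM (377-fold, 167 to 1051). Among Fc receptors, the inhibitory Fcgr2b (766 against 66.5 CPM, 11.5-fold) and the antibody carrier Fcgrt (1081 against 132 CPM, 8.20-fold) were higher, while Fcgr1 and Fcgr3 differed by 1.38 and 1.62-fold. Fcgr2b could be measured only by being higher in Ms4a7_high.

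In the list of iron and heme handling 6 of 13 genes were past the fold upward and 0 downward, with 9 measured. Over all measured genes 5.64% were higher and 2.65% lower, and the complement and lipid lists below can be read against the same shares. Cd163 and Cp are also border macrophage markers. The 6 were Cd163, the iron exporter Slc40a1 (567 against 87.0 CPM), the biliverdin reductase Blvrb (405 against 50.7 CPM), the transferrin receptor Tfrc (171 against 18.2 CPM), the ferroxidase ceruloplasmin Cp (306 against 4.64 CPM) and Hpgd (306 against 17.8 CPM), which is a prostaglandin dehydrogenase and not known for iron or heme, and whose 34 UMIs were all from WT 3. Cd163, Tfrc, Cp and Hpgd, at 4.64 to 18.2 CPM in Microglia, could be measured only through a high level in Ms4a7_high. Slc40a1 and Blvrb too could be measured only by being higher there, so the direction of all 6 was fixed by the filter. Of the 34 UMIs of Cp 33 came from WT 3, and its level was higher in Fibroblasts (375 CPM). The ferritin light chain Ftl1 was at 8998 and 8637 CPM. In the complement list 2 of 11 genes were past the fold, the anaphylatoxin receptor C5ar1 (685 against 136 CPM) and properdin, Cfp (23 against 2 UMIs). Cfp could be measured only through its level in Ms4a7_high. Apoe, the lipid carrier, stood just inside the fold at 9259 against 2392 CPM (3.87-fold, 3.62 to 4.14). Its microglial level ranged from 1562 to 3885 CPM over the mice and was lowest in WT 3, so that within WT 3 the cells differed 6.23-fold (9723 against 1562 CPM, 5.71 to 6.79). Over the pooled cells 0 of 18 genes of lipid handling were past it upward and 1 downward, Lpcat2 (27.0 against 307 CPM).

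Chemokines were high in most of these cells but uneven among them. Ccl7 stood at 4945 against 369 CPM (13.4-fold), Cxcl2 at 2774 against 423 CPM (6.56-fold) and Cxcl1 at 648 against 16.6 CPM. Ccl2 was at 4179 against 1120 CPM (3.73-fold), but over the microglia of the 6 mice it ranged from 461 to 1921 CPM. Cxcl10 (54.0 against 393 CPM) was lower, and Ccl4, at 1558 against 4790 CPM, was 3.07-fold lower. Of the 15 chemokines 6 were past the fold upward and 1 downward, with 12 measured. The upward ones included Pf4, Ccl24 and Ccl9, of which Pf4 and Ccl24 also belong to the list of border macrophage markers. Pf4, Ccl24 and Cxcl1 could be measured only through a high level in Ms4a7_high, so their direction was fixed by the filter. Per cell, Cxcl2 ran from 0 to 61 UMIs with a median of 1, and the 2 highest cells held 119 of its 308 UMIs. Ccl4 stood at 930 CPM in the cells of WT 3 and at 4490 CPM in the 6 cells of the other mice. Chemokines and immediate early genes can change while tissue is dissociated. Of 16 immediate early genes 0 were past the fold upward and 1 downward, Egr1 (441 against 2006 CPM). The counts of both lists can be read against 5.64% higher and 2.65% lower over all measured genes. Microglia came from the same dissociated tissue, so a ratio to them cannot show a response shared by both. The part of dissociation in these levels was not tested.

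In further lists the counts past the fold can be read against 5.64% higher and 2.65% lower over all measured genes. Of 24 transcription factors of macrophages and microglia, Klf4 (504 against 95.1 CPM, 5.30-fold) was past the fold upward and Sall1 downward, and the macrophage factor Spi1 (PU.1) stood at 306 against 356 CPM. Of 20 lysosomal genes, Ctsc (1333 against 274 CPM) was past the fold upward and 1 downward, while Ctsb, the most abundant, was at 6638 against 4937 CPM. The receptor list held 0 higher and 3 lower genes of 17, with 14 measured, among the lower ones Cx3cr1 and Tgfbr1. Of 15 genes of amoeboid microglia of early postnatal white matter, Igf1 (441 against 47.2 CPM) and Lgals1 (621 against 71.1 CPM) were higher, with 9 measured. Igf1 and Lgals1 could be measured only by being higher in Ms4a7_high. Igf1 in microglia ranged from 8.14 to 147 CPM over the mice. Of 15 interferon-induced genes 1 was measured and higher, Ifi27l2a (252 against 24.0 CPM), but 14 of its 28 UMIs lay in 1 cell and 19 in the 6 cells from outside WT 3, and within WT 3 it stood at 98.4 against 32.2 CPM (3.06-fold, 1.26 to 6.73). Ifi27l2a, too, could be measured only by being higher in Ms4a7_high. MHC class II genes were nearly silent, with 22 UMIs of the list in all 45 cells, 19 of them from Cd74, the invariant chain.

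Genes outside these lists with the largest differences included Retnla, Mmp9 and Ahnak. Retnla, a secreted protein of alternatively activated macrophages, gave 127 UMIs against 0 in the microglia (at least 986-fold higher), but these lay in 3 cells with 59, 54 and 14 UMIs, of which the first 2 were from WT 3 and the third was from Fmr1-KO 3. Mmp9, a matrix protease, gave 68 UMIs in 21 cells against 0 (at least 528-fold higher). Ahnak, a large scaffold protein, gave 36 UMIs against 1 in the microglia (839-fold, 141 to 34029).

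Mrc1 and Dab2 were found in all 45 cells, whereas Ms4a7 was found in 26, Mmp9 in 21, Cd209f in 16 and Retnla in 3. The division list was concentrated in 2 cells, 1 of WT 1 with 86 UMIs and 1 of WT 3 with 52, which together held 138 of its 250 UMIs and 23 of the 28 UMIs of the proliferation marker Mki67. Of the 20 division genes 0 were past the fold upward and 1 downward, against 5.64% and 2.65% of all measured genes. The Fmr1-KO 3 cell differed from the rest, with 7 UMIs of Mrc1, 0 of Lyve1 and Pf4, 9 of the MHC class II list, 22 of the division list and 14 of Retnla. The 6 cells from outside WT 3 held 0, 1, 4, 6, 7 and 11 UMIs of Lyve1, whereas the 39 cells of WT 3 held 1 to 76 (median 16). The ranges overlapped. Pooled, Lyve1 stood at 9154 CPM in WT 3 (8545 to 9796) and at 1480 CPM in the other 6 cells (991 to 2125), and Cd209f at 1017 and 51.0 CPM, the latter from 1 UMI. Mrc1 stood at 10062 and 4950 CPM, with intervals apart (9422 to 10734 and 4014 to 6038), Stab1 at 2570 and 816 CPM, Clec10a at 2133 and 510 CPM, Lyz2 at 2931 and 1327 CPM, Cd163 at 1575 and 765 CPM and Ms4a6b at 831 and 153 CPM. The pooled levels of these genes therefore rest mainly on WT 3. F13a1 (3237 and 2704 CPM), Pf4 (2603 and 2704 CPM) and C1qa (3522 and 3062 CPM) were closer. With so few cells from 4 mice, the mouse and the cell cannot be told apart here. Without WT 3 only 291 genes could be measured, of which 13 were higher and 10 lower than in Microglia. Within WT 3 alone 124 of 1736 were higher and 62 lower, including 102 and 41 of those found in the pooled cells. Without the cells with shared barcodes, 112 were higher and 53 lower.

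**Figure D4:**
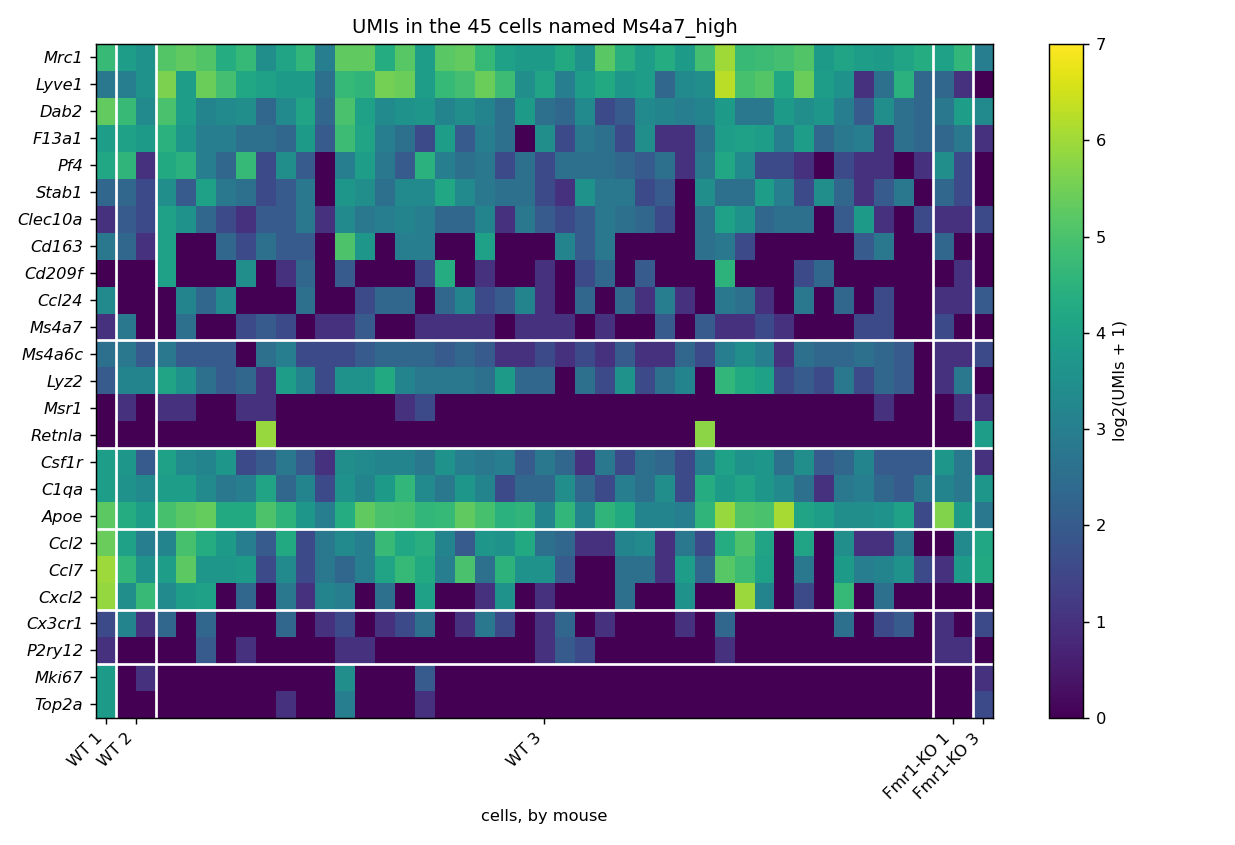
UMIs in each of the 45 Ms4a7_high cells (columns, ordered by mouse) for 25 genes (rows), as log2(UMIs + 1). Mrc1 and Dab2 were found in every cell, Cd163 in 23 cells, Retnla in 3, and Mki67 and Top2a mainly in the dividing cells of WT 1 and WT 3.

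The Border_Macrophages cells did not show the genes of border macrophages. Mrc1, Lyve1, Pf4, Cd163, Stab1, Dab2, Ms4a7, Maf and all 3 C1q genes had 0 UMIs in all 12 cells, and the whole list of 20 gave 15 UMIs, from F13a1 (12), Clec12a (2) and Clec10a (1), 11 of them in 1 cell. The exact Poisson upper limit for 0 UMIs in this pool is 154 CPM, and 0 of 12 cells allows up to 26.5% of such cells to hold a UMI, which does not limit the share of cells that express the gene. In pooled level Mrc1 in Ms4a7_high was at least 72.9-fold and Lyve1 at least 62.1-fold higher. The markers the study used for this name are Lyz2, Msr1 and Fcgr4. All 3 were higher in these cells than in any other of the 18 subtypes. Lyz2 was found in 11 of 12 cells, in counts of 10, 50, 3, 3, 4, 4, 52, 19, 3, 28, 0 and 31 UMIs, or 8668 CPM, 37.4-fold above Microglia (31.7 to 43.8), while Msr1 gave 8 UMIs in 3 cells, 5 of them in 1 cell (335 CPM, 86.6-fold, 29.7 to 244). Since most genes of border macrophages were not found although these 3 markers were, the group is called the Plac8 and Lyz2 cells below.

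Among the 10 genes with the most extreme upward ratios, those that do not rest on 1 cell, described below, were Plac8, Ear2, S100a4, S100a6 and Thbs1. They are on the lists of monocyte markers, which were chosen with earlier results of these data known. All stood at 0 to 10.8 CPM in Microglia and could be measured only through their level in the 12 cells. Plac8, a cysteine-rich protein of monocytes and granulocytes, was found in 11 of 12 cells (10, 7, 22, 21, 3, 3, 8, 7, 6, 8, 0 and 4 UMIs) and stood at 4146 CPM, against 10.8 CPM in Microglia (383-fold, 250 to 605) and 0 UMIs in the 45 Ms4a7_high cells. Ear2, a ribonuclease of patrolling monocytes, gave 27 UMIs against 0 in both other groups, at least 975-fold above Microglia. The calcium-binding proteins S100a4 (1214 against 1.16 CPM, 29 against 3 UMIs) and S100a6 (1382 against 2.32 CPM) and the adhesive protein Thbs1 (2052 against 4.64 CPM) were also among the leading genes. S100a6 was also high in Fibroblasts, at 1108 CPM. The chemokine receptor Ccr2, which classical monocytes use to leave the marrow, gave 11 UMIs in 5 cells against 2 in all microglia.

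With 23881 UMIs only 376 genes could be compared with Microglia, of which 52 (13.8%) were past the fold upward and 34 (9.04%) downward, with a median log2 ratio of -0.07. With TMM scaling the counts were 40 and 46, and the median moved to -0.73. Of 14 genes of classical monocytes 4 were measured, and all 4 were higher, and of 14 genes of non-classical monocytes 3 were measured and 2 were higher, Ear2 and the integrin Itgal (1131 against 10.8 CPM). These genes stood at 0 to 10.8 CPM in Microglia and could be measured only through their level in the 12 cells, so their direction was fixed by the filter. In summed level the first list stood at 12311 CPM, against 3161 in Ms4a7_high, where F13a1 gave nearly all of it, and 46.0 in Microglia. The second list stood at 8877, 964 and 1268 CPM. All 14 genes of the second list were higher in these cells than in any other of the 18 subtypes. Only 3 of them were measured, however, so this ranking rests largely on few UMIs. The share of all genes highest in these cells was not computed. Spn had 6 and Eno3 had 4 UMIs, and 25 of the 42 UMIs of Nr4a1 lay in 1 cell. Small genes of this kind with few UMIs were the peptidase Ace (14 UMIs against 0 in Microglia), Treml4 (14), Cd300e (8) and Fcgr4 (13 UMIs, 544 CPM against 7.73 CPM), an activating Fc receptor.

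The 12 cells differed in the genes they held. In a grouping chosen here after the values were seen, 8 cells held 2 or more UMIs of Ace, Ear2, Treml4, Cd300e and Fcgr4. In the same grouping 3 cells held 2 or more UMIs of Fn1, F13a1, Vcan, Ly6c2 and Msr1, and 0 cells did so for both. As the genes were picked on these same cells, the lack of overlap is no result. Other monocyte genes crossed the grouping. Plac8 was found in cells of both sets. Thbs1 gave 5 UMIs in a Fmr1-KO 2 cell of the first set and 19 in a WT 3 cell of the second. The first set held cells of WT 2, WT 3 and Fmr1-KO 2, among them a cell of Fmr1-KO 2 with 9 UMIs of Ear2, 6 of Ace, 15 of Cx3cr1 and 25 of Nr4a1, the transcription factor on which patrolling monocytes depend. Among the second set, a cell of WT 3 with 4478 UMIs held 16 UMIs of fibronectin (Fn1), 11 of versican (Vcan), 11 of F13a1, 3 of Ly6c2, 5 of Msr1 and 39 of the division list. The other cells of that set were from Fmr1-KO 3, with 28 and 31 UMIs of Lyz2, and shared a barcode across libraries, so that they may be counted as 1 cell.

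A single cell of Fmr1-KO 3 set 5 of the 10 leading genes of the pool, S100a9, S100a8, BC100530, Gm5483 and Stfa2. This cell of 1665 UMIs held all 129 UMIs of S100a9 and 74 of the 77 UMIs of S100a8, the alarmin proteins abundant in neutrophils, all 22 of Stfa2 and all 24 of BC100530, 4 of Retnlg, 6 of Mmp9 and 9 of the granulocyte growth factor receptor Csf3r, with 0 UMIs of Lyz2, Plac8 and Cx3cr1. It held 227 of the 249 UMIs that the neutrophil list gave in the 12 cells. In the pool S100a9 stood at 5402 CPM and S100a8 at 3224 CPM, at least 4657 and 2780-fold above Microglia, and both values rest on that cell. Stfa2, BC100530 and Gm5483 are related genes of the stefin family with nearly the same counts (22, 24 and 24 UMIs), whose reads may be split between copies. Without this cell 47 genes were past the fold upward and 31 downward, and 45 and 31 of them were among those of the whole pool. Without the cells that share a barcode the counts were 47 and 29, and without WT 3, which gave 5 of the 12 cells, 24 and 19 of 205 measured genes.

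**Figure D5:**
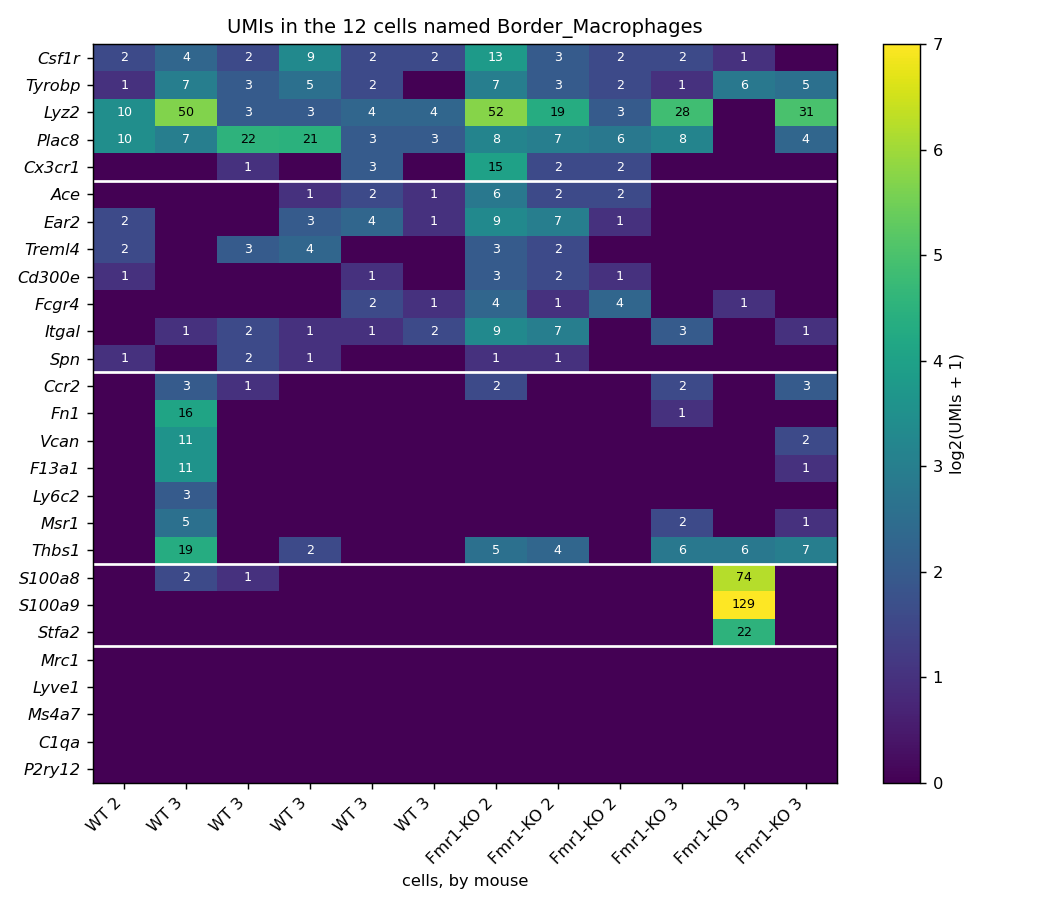
UMIs in each of the 12 Border_Macrophages cells (columns, labelled by mouse) for 27 genes (rows), coloured by log2(UMIs + 1) with the count printed. Lyz2 and Plac8 were found in 11 cells, the genes Ace to Fcgr4 and the genes Fn1 to Msr1 in different cells, S100a9 in 1 cell, and Mrc1, Lyve1, Ms4a7, C1qa and P2ry12 in none.

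Genes of both microglia and Ms4a7_high were low in the Plac8 and Lyz2 cells, among them C1qa, Maf and Lgmn, and so were microglial genes that Ms4a7_high also lacked or held at a low level, such as P2ry12 and Sparc. C1qa (2529 CPM in Microglia) was at least 20.1-fold lower, P2ry12 at least 18.9-fold and Sparc at least 28.4-fold lower. Ccl4 (4790 CPM) was at least 38.1-fold lower, the protease Lgmn (126 against 4070 CPM) 32.4-fold lower, and Egr1 (41.9 against 2006 CPM, 1 UMI) gave a ratio of 0.0209 (0.000528 to 0.116). Maf had 0 UMIs against 1260 CPM in Microglia. Of the 20 genes of homeostatic microglia 7 were measured, 5 of them past the fold downward and 0 upward, and Csf1r stood at 1759 CPM (42 UMIs) against 2771 CPM. Cx3cr1 was at 963 CPM from 5 cells, 15 of its 23 UMIs in 1 cell. Of the genes shared by myeloid cells 16 were measured, of which 3 were higher, 4 lower and 9 between. The higher ones were Lyz2, Ptprc (CD45, 1172 against 133 CPM, 8.79-fold) and the actin regulator Coro1a (2177 CPM, 4.14-fold), of which Coro1a is under the fold with TMM scaling. Other genes past the fold were the transcription factor Cebpb (3015 against 481 CPM, 6.26-fold), Ccl6 (1633 against 184 CPM) and Lgals3 (1298 against 3.48 CPM). At their levels in Microglia, Lyz2, Ptprc, Ccl6 and Lgals3 could be measured only by being higher in the 12 cells. Their direction was fixed by the filter. Of 10 measured lysosomal genes 0 were past the fold upward and 4 downward, and of 12 measured immediate early genes 0 and 2, against 13.8% and 9.04% of all measured genes.

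Set against each other, 397 genes could be measured, of which 51 (12.8%) were past the fold in favour of Ms4a7_high and 48 (12.1%) in favour of the Plac8 and Lyz2 cells. Mrc1 and Lyve1 led in Ms4a7_high, followed by Ccl7 (at least 39.4-fold), Dab2 (at least 34.0-fold), Ccl2 (at least 33.3-fold), Maf (at least 30.0-fold), C1qa (at least 27.4-fold), C1qc (at least 24.3-fold), Cxcl2 (at least 22.1-fold) and Pf4 (at least 20.9-fold), none of which gave a UMI in the 12 cells. In the other direction, Plac8 was at least 153-fold, Thbs1 at least 75.9-fold, S100a4 at least 44.9-fold and Ear2 at least 41.8-fold lower in Ms4a7_high, and Cd52, a small glycoprotein of lymphocytes and monocytes, stood at 9.01 CPM (1 UMI) against 1382 CPM. All genes named so far in this comparison could be measured only through their level in the higher group. Their direction was fixed by the filter. Lyz2 was 3.27-fold lower in Ms4a7_high, at 2648 against 8668 CPM. Apoe was 15.8-fold higher in Ms4a7_high (9.37 to 29.0), at 9259 against 586 CPM. With each cell whose barcode was shared left out, 45 genes were higher and 45 lower.

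Apart from the dendritic cell list, markers of other cell types were near 0 in both groups. In Ms4a7_high the 10 fibroblast markers summed to 108 CPM, against 44968 CPM in the cells named Fibroblasts, the 10 endothelial markers to 360 against 22964 CPM in Endothelial, the 10 astrocyte markers to 342 against 28012 CPM and the 9 neuronal markers to 171 against 14721 CPM in their own cells. The pericyte markers summed to 18 CPM, the oligodendrocyte markers to 279 CPM and the ependymal markers to 0. In the Plac8 and Lyz2 cells these lists summed to 41.9 (fibroblast), 168 (endothelial), 293 (astrocyte), 209 (neuron), 41.9 (pericyte), 209 (oligodendrocyte) and 83.7 CPM (ependymal). Lymphocyte markers gave 36.0 and 41.9 CPM, and mast cell markers 0 in both. The dendritic cell list gave 99.1 CPM in Ms4a7_high and 712 CPM (17 UMIs) in the Plac8 and Lyz2 cells, where 3 of its genes were highest among the 18 subtypes. In Microglia it gave 1540 CPM, but 1237 CPM of this came from Siglech, which is also on the list of homeostatic microglia genes. The sum in Microglia is therefore no measure of dendritic genes.

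Among the cells named Microglia, 6 of 810 held 7 to 14 UMIs of 9 genes that were nearly absent from the rest (Lyve1, Cd163, Pf4, Ms4a7, F13a1, Cbr2, Cd209f, Clec10a and Ccl24), whereas 757 held 0, 38 held 1 and 9 held 2. In Ms4a7_high the lowest cell held 6 and the highest 167. The 6 cells came from WT 1 (1 cell), WT 3 (3 cells) and Fmr1-KO 1 (2 cells). The 3 of WT 3 had 732, 765 and 912 UMIs in all, with 0 UMIs of P2ry12 and Cx3cr1, whereas the cell of WT 1, with 10146 UMIs, held 27 UMIs of Mrc1 together with 9 of P2ry12 and 24 of Cx3cr1. These 6 cells held 64 of the 120 UMIs that the 9 genes gave in all microglia, so the microglial levels of several of them rest on few cells. Without the 6 the ratio of Ms4a7_high to Microglia was 4010 for Lyve1 (1712 to 12383), 3369 for Pf4 (924 to 27951, 2 UMIs in Microglia), 2020 for F13a1 (782 to 7456) and 284 for Ms4a7 (104 to 1082). The counts of 119 higher and 56 lower genes were the same.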

How the data were processed

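Single-cell RNA-Seq (InDrop) was run on the cortex of 6 mice in 17 libraries. The authors demultiplexed with bcl2fastq, aligned to mm10 with TopHat2 2.0.14, and used ESAT with RefSeq transcripts to count UMIs, where multimapping reads were dropped and rare UMIs merged. The deposited table holds raw UMI counts (17418 genes, 18393 cells). The deposited annotation gives subtype, mouse and library, and a size factor per cell, a ratio the authors estimated with scran within each batch. They had clustered the cells in 2 rounds, and the 1113 doublets in their annotation stayed out of the pools. No further filter on cells or doublet caller was applied.

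UMI counts were summed over the cells of each subtype and divided by their total (CPM). Levels have exact Poisson intervals, ratios exact conditional binomial intervals and shares exact binomial (Clopper-Pearson) intervals, all at 95% and for counting error only. A gene was measured where the mean of both CPM, times the smaller total, reached 10 UMIs. The fold was 4, and a count of 0 was set to 3 UMIs, unless the other group lay under that floor. No test was made. Named genes were the markers Ms4a7, Mrc1, Lyz2 and Msr1, list genes, and the 10 genes each way with the most extreme bound of the ratio in each comparison, of which some are not reported here. Members and the 32 gene lists were chosen with earlier results of these data known. Alternatives were other scalings (edgeR 4.0.16 TMM factors), weights, filters, folds, thinning to 700 UMIs, and mice or cells left out. Gene positions are from GENCODE vM21 and promoters from RefSeq. The ratio script was tested on simulated data. Software was Python 3.11.15, numpy 2.4.6, pandas 2.3.3, scipy 1.17.1, matplotlib 3.10.9 and R 4.3.3.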

Additional observations from a re-analysis of the deposited data

Results flagged for a closer look

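In 18 sets of 6 values, 1 per mouse, 3 had a mouse whose gap to the nearest other mouse took up most of the range, where chance gives about 1 in 20. Ms4a7_high cells were 15.7% of the immune cells of WT 3, with a gap of 0.889 of the range to the next mouse, Fmr1-KO 1 at 1.74%. Microglia were 79.5% of the immune cells of WT 3, with a gap of 0.839 of the range, and this value follows in part from the same 39 cells, since both are shares of 249. Siglech stood at 776 CPM in the microglia of WT 1, with a gap of 0.663 of the range, the mean over the 6 mice being 1192 ± 220 CPM (SD, n = 6). Siglech had 0 UMIs in both groups described here, so its direction there does not rest on WT 1.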

How the results depend on the processing

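Of the 23 or 24 genes followed in each comparison, none past the fold changed direction under these alternatives. Counts of genes past the fold, higher and lower, moved with the filter on low counts, the fold and the depth. For Ms4a7_high against Microglia they were 199 and 122 at 5 expected UMIs, 72 and 24 at 20, 599 and 246 with no filter, 328 and 207 at a fold of 2, and 45 and 15 with each cell thinned to 700 UMIs. For Border_Macrophages against Microglia they were 137 and 72, 16 and 17, 950 and 150, 93 and 62, and 15 and 11. For Ms4a7_high against Border_Macrophages they were 95 and 127, 27 and 13, 171 and 352, 72 and 105, and 18 and 11. Leaving out each mouse gave 13 to 123 higher and 10 to 60 lower in the first comparison, 24 to 53 and 19 to 34 in the second, and 25 to 57 and 21 to 50 in the last. The lowest were without WT 3, where 291, 205 and 201 genes could be measured. TMM scaling moved the median log2 ratio of measured genes to -0.10, -0.73 and 0.36, against 0.04, -0.07 and -0.19 without it, so the sign turned in the first and the last. With TMM 104 and 63, 40 and 46, and 59 and 37 genes were past the fold.

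As a share of all cells, Ms4a7_high made up 0.0543% in WT 2, 1.14% in WT 3 and 0.0987% in Fmr1-KO 1, and Border_Macrophages 0.146% in WT 3, 0.117% in Fmr1-KO 2 and 0.102% in Fmr1-KO 3. Among leading genes, Olfml3, Sall1, Tmem119 and Phgdh, all at 0 UMIs, no longer reached the fold with thinned cells or without WT 3, and Maf in Border_Macrophages did not with thinned cells, as fewer UMIs raise the floor. Lyz2 lay 3.06 lower on the log2 scale in Ms4a7_high than in Border_Macrophages without WT 3, against 1.71 with it. The alternatives chosen after seeing the data left out cells with shared barcodes, the S100a9 cell or 6 microglia. No paired analysis was possible because the results come from no test. Depth limits Border_Macrophages most, where 3 UMIs stand for 126 CPM.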
